A study of Homo sapiens with 14 samples.

Results

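The comparison was between MM1S cells given CGS-21680 alone and MM1S cells given salmeterol alone, neither with dexamethasone. It used 4 of the 14 arrays of the series, 2 per agonist, and 9301 genes of 19775 with a named probe set. The arrays were chosen by their titles. A gene entered when its probe set carried exactly 1 symbol and had a log2 level of at least 4 on at least 2 of the 14 arrays, and the probe set with the highest mean stood for the gene. MM1S is an established line of human multiple myeloma, a cancer of plasma cells. CGS-21680 at 12.5 nM, an agonist of the adenosine 2A receptor, was set against salmeterol at 1 nM, which acts on the beta-2 adrenergic receptor, each for 6 h. Cells with neither agonist (untreated, 2 arrays) gave the base level. A further 4 arrays held each agonist together with dexamethasone, a synthetic glucocorticoid, at 25 nM, and 2 arrays held that dose of dexamethasone alone. The 2 arrays with dexamethasone at 2 µM entered none of the differences given here. They did enter the shared estimate of spread, the filter, the choice of probe set and the quantile normalization. Each agonist was used at 1 dose and the doses differ, so the receptor, the compound and the dose cannot be told apart. The labels call the arrays of a group biological replicates and do not say how cultures were kept apart. The p-values therefore reflect only the spread between these arrays, some of which may be technical.

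Both receptors couple to the stimulatory G protein, which switches on adenylyl cyclase. The cyclic AMP that is made activates protein kinase A, which phosphorylates CREB, a transcription factor that binds the cyclic AMP response element TGACGTCA or the shorter TGACG. Among the genes switched on in this way are brakes on the same pathway: phosphodiesterases that degrade cyclic AMP, RGS proteins that shorten G protein signalling, and short repressor forms of CREM.

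Values are log2 of the deposited intensity. All 10 plasma cell markers checked had a log2 level of at least 4 on all 4 arrays, SDC1 from 12.03 to 12.42 and MZB1 from 12.6 to 12.82. Markers of T and NK cells (0 of 9) and of myeloid cells (0 of 7) did not reach that level on all 4 arrays. COL1A1 of 7 stromal markers did, as did KRT8 and HBB of 7 epithelial and erythroid ones, and their values on the 4 arrays, 7.16 to 7.43, 4.96 to 4.96 and 7.15 to 7.45, overlapped between the agonists. Replicates correlated at 0.9893 for CGS-21680 and 0.9896 for salmeterol across genes, which are not independent of each other. Control probe sets for the 3' and 5' ends of ACTB differed by 1.246 on CGS-21680 replicate 1 and 2.227 on CGS-21680 replicate 2, the lowest and the highest difference of all 14 arrays. Their part in the results was not tested. The median log2 level of the genes was 7.447 and 7.437 on the salmeterol arrays, 7.532 and 7.631 on the CGS-21680 arrays, and 7.567 and 7.569 on the untreated arrays.

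The agonists differed in 46 of 9301 genes, which is 0.495% of those tested (limma, Benjamini-Hochberg adjusted p under 0.05). CGS-21680 was higher in 26 genes (0.28%) and lower in 20 (0.215%), and 24 genes (0.258%) differed by at least 2-fold. Between the agonists, "higher" and "lower" mean the CGS-21680 arrays relative to the salmeterol arrays. PDLIM7, a lower gene, passed the filter only through the 2 salmeterol arrays, and PARP14, a higher gene, only through the 2 CGS-21680 arrays. The direction of these 2 genes follows from the filter, though they count among the 46. Genes that were lower with CGS-21680 were genes that salmeterol raised above the untreated level, among them SAT1, FBXO32, TESC, DNAAF1, CREM and RGS2. Genes that were higher with CGS-21680 were in 24 of 26 cases genes that salmeterol lowered, among them the myeloma transcription factor gene IRF4 and the mTOR inhibitor gene DEPTOR. The median difference over all genes was 0.09, and it was -0.02 after quantile normalization and -0.05 after the array medians were set equal. Those scalings changed the split of the calls from 26 higher and 20 lower to 17 and 29 and to 13 and 30. All 20 lower genes passed under both, but of the 26 higher genes 16 and 13 did. Leaving out 1 array moved the count to 8 and 24 (without the first or second CGS-21680 array), 70 (without salmeterol replicate 1) and 26 (without either untreated array). SAT1, TESC, RGS2, PIGF and DTWD1 passed in all 14 such fits. The other 41 genes missed in 1 to 13 of them, with an adjusted p of at most 0.171. Without CGS-21680 replicate 1 or 2, 3 and 8 of the 20 lower genes and 3 and 5 of the 26 higher genes still passed, and without salmeterol replicate 1 or 2, 9 and 7 lower and 14 and 8 higher genes. Fitted on the 4 agonist arrays alone, with no other group to estimate the spread, 0 genes passed and 1096 of the 9301 had an unadjusted p under 0.05 (limma).

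**Figure D1:**
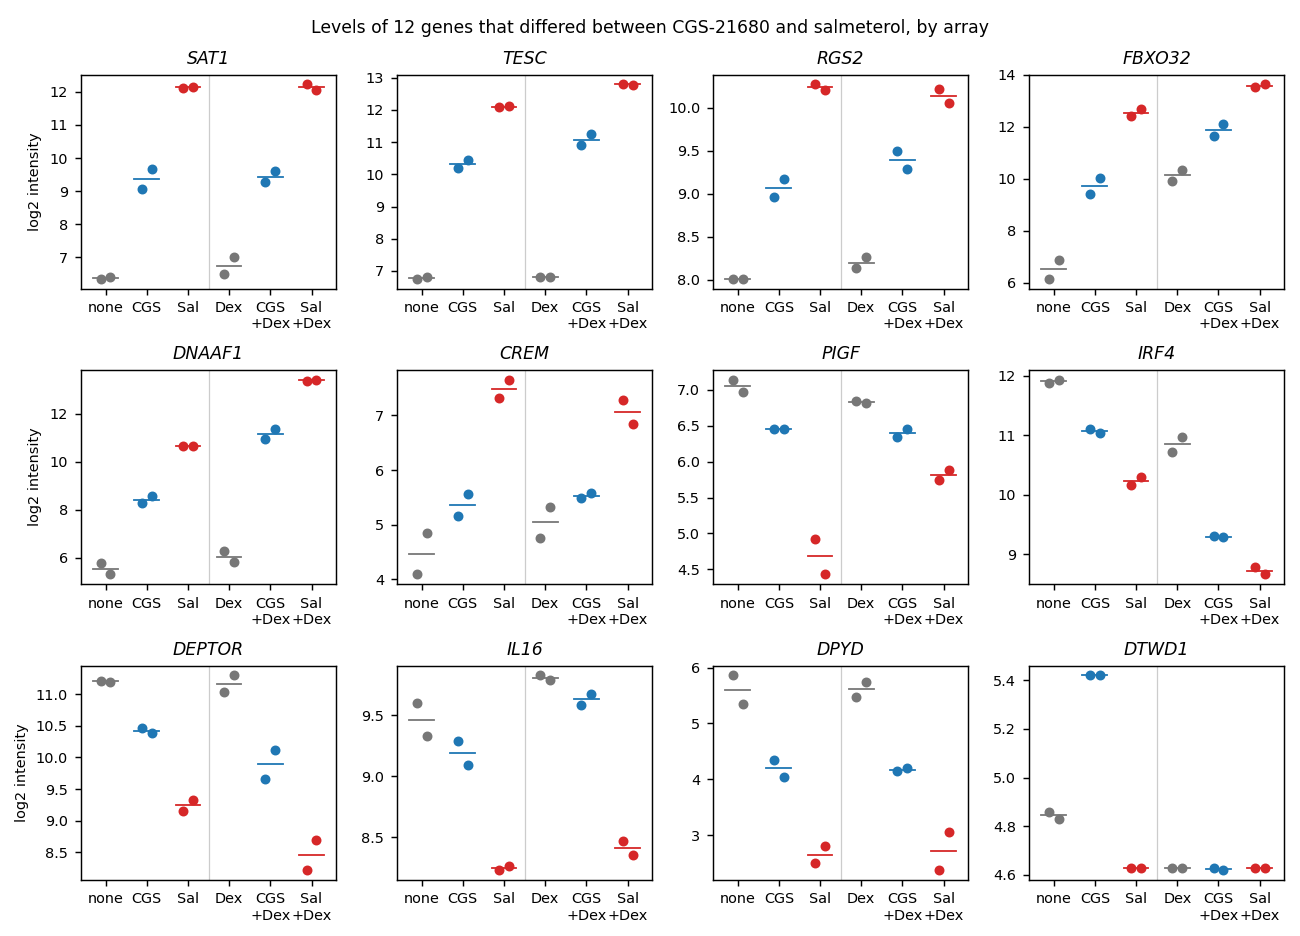
Log2 intensity on single arrays (points) with the mean of each pair (bar) for 12 of the 46 genes that differed between the agonists: none, untreated; CGS, CGS-21680; Sal, salmeterol; Dex, 25 nM dexamethasone. For SAT1 the CGS-21680 arrays, at 9.06 and 9.68, lie between the untreated arrays (6.35 and 6.41) and the salmeterol arrays (12.13 and 12.15).

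SAT1 encodes the acetyltransferase that starts the breakdown of the polyamines spermidine and spermine. Its log2 level was 6.35 and 6.41 in untreated cells, 9.06 and 9.68 with CGS-21680, and 12.13 and 12.15 with salmeterol. The 3 pairs of arrays did not overlap, with CGS-21680 in the middle. Over all genes tested, the arrays of the agonists did not overlap in 40.4%, with CGS-21680 higher in 32.5% and lower in 7.92%. The difference between the agonists was -2.77 ± 0.225 (SE; limma adjusted p = 0.0019), or 6.81-fold, and its 3 probe sets gave -2.84 to -2.6. FBXO32, a subunit of a ubiquitin ligase, was at 6.14 and 6.88 untreated, 9.42 and 10.02 with CGS-21680 and 12.43 and 12.67 with salmeterol. It differed by -2.83 ± 0.3 (adjusted p = 0.0069, limma), and by -2.11 when its 6 probe sets were averaged. Without CGS-21680 replicate 1 the adjusted p of FBXO32 was 0.0544. TESC, which encodes a calcium-binding protein, was at 6.75 and 6.82 untreated, 10.21 and 10.46 with CGS-21680 and 12.09 and 12.12 with salmeterol. It had the smallest adjusted p of all genes (difference -1.77 ± 0.126, adjusted p = 0.0013, limma). DNAAF1, a dynein arm assembly factor gene, was at 5.79 and 5.3 untreated, 8.27 and 8.56 with CGS-21680 and 10.65 and 10.64 with salmeterol. Its difference of -2.23 ± 0.24 (adjusted p = 0.0069, limma) rested on 1 of 2 probe sets, since the other gave -0.04, and the adjusted p without CGS-21680 replicate 1 was 0.0544. In each of these 4 genes both agonists passed the test against untreated cells.

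RGS2 and CREM are genes of the feedback on cyclic AMP. RGS2, which shortens G protein signalling, was at 8.01 and 8.01 in untreated cells, 8.96 and 9.17 with CGS-21680 and 10.27 and 10.2 with salmeterol. The difference of -1.17 ± 0.113 (adjusted p = 0.0039, limma) was 2.24-fold, with no overlap between the 3 groups. CREM was at 4.09 and 4.84 untreated, 5.16 and 5.56 with CGS-21680 and 7.31 and 7.65 with salmeterol. Its difference was -2.12 ± 0.356 (adjusted p = 0.043, limma), and all of its 4 probe sets gave the same sign, -2.23 to -0.29. CREM passed the test against untreated cells with salmeterol (3.01, adjusted p = 0.0017) and not with CGS-21680 (0.89, adjusted p = 0.52, limma). It lost the call in 12 of the 14 fits without 1 array, with an adjusted p of up to 0.137. P2RY6, a G-protein-coupled receptor for UDP, was at 7.54 and 7.54 with CGS-21680 and 9.05 and 8.45 with salmeterol (-1.21 ± 0.205, adjusted p = 0.043, limma). The call did not hold in 11 of those fits (highest adjusted p 0.14).

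Promoters of a few genes are shown because the CREB element can be looked for in them. PDLIM3, RGS2 and GLA were picked for holding a match, CREM as a known CREB-regulated gene and IRF4 as a higher gene. The RefSeq promoter table (GRCh38.p14) held 33 of the 46 genes. Each window ran from 250 bases before to 50 after the start of the gene, and TGACGTCA and TGACG were searched on both strands, the second being contained in the first. TGACGTCA was in 1 of 13 windows of lower genes (7.69%) and in 0 of 20 of higher genes, against 3.5% of the 7721 windows of genes tested and 1.85% of all 35116 windows. TGACG was in 5 of 13 (38.5%) and 5 of 20 (25.0%), against 36.4% of genes tested. A match is a description of the letters and not evidence of a bound site. The 250 bases before the start follow in the direction of the gene, with matches in capitals. PDLIM3 (chr4:185535508-185535757, minus strand) holds the full element with its first base 48 bases before the start. RGS2 (chr1:192808789-192809038, plus strand) and GLA (chrX:101407926-101408175, minus strand) hold the short one as its reverse complement, CGTCA. CREM (chr10:35126596-35126845, plus strand) and IRF4 (chr6:391502-391751, plus strand) hold neither in this window. Other starts of these genes, including any used for the short forms of CREM, were not examined.
PDLIM3: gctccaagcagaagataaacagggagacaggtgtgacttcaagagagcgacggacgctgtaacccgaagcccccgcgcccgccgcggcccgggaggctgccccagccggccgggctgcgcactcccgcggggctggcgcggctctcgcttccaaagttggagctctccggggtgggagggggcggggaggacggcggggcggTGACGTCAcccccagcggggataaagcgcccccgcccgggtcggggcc
RGS2: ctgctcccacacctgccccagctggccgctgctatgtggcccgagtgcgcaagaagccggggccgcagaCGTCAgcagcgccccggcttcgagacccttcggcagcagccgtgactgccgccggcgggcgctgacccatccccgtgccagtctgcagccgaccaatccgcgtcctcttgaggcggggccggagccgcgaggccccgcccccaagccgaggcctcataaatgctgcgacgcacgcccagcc
GLA: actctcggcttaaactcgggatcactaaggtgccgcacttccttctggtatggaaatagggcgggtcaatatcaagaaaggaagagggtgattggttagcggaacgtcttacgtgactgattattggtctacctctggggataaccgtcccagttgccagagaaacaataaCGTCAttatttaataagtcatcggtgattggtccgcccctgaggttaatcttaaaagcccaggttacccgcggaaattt
CREM: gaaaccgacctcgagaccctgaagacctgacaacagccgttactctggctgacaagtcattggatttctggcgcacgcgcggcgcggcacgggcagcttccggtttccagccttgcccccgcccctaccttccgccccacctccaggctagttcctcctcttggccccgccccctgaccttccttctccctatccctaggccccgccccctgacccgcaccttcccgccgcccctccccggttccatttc
IRF4: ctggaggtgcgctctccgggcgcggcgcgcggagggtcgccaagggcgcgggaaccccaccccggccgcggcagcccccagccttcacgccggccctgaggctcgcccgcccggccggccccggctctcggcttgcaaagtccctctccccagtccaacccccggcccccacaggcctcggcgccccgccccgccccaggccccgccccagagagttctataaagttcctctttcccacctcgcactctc

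PDLIM3, which encodes an actin-associated protein with PDZ and LIM domains, was at 7.96 and 7.81 in untreated cells, 9.88 and 9.84 with CGS-21680 and 11.05 and 11.04 with salmeterol. The difference was -1.18 ± 0.187 (adjusted p = 0.032, limma). The 3 groups did not overlap. GLA, the lysosomal alpha-galactosidase gene, was at 9.98 and 10.04 with CGS-21680 and 11.15 and 11.07 with salmeterol (-1.10 ± 0.143, adjusted p = 0.014, limma), against 8.7 and 8.46 untreated. Without any 1 of the 4 agonist arrays its adjusted p was 0.0504 to 0.0817, and for PDLIM3 0.0878 to 0.12. CTSB, a lysosomal protease gene, was at 11.5 and 11.79 with CGS-21680 and 12.54 and 12.85 with salmeterol, and its 5 probe sets gave -1.06 to -0.76 (adjusted p = 0.032, limma). EZR, which encodes ezrin, a linker of the cell membrane to actin, was at 10.03 and 10.25 with CGS-21680 and 11.12 and 11.05 with salmeterol. Its difference was -0.94 ± 0.128 (adjusted p = 0.017, limma), and -1.66 to -0.94 over 4 probe sets.

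CMTM7, a membrane protein gene, differed by -1.55 ± 0.236 (adjusted p = 0.029, limma), with 7.17 and 7.16 under CGS-21680 and 8.9 and 8.53 under salmeterol. PCDH1, a protocadherin gene, differed by -1.25 and NSF, the ATPase of vesicle fusion, by -0.71. For B4GALT1, a Golgi galactosyltransferase gene, the difference of -0.89 held for 1 of 3 probe sets and was -0.29 for their mean (adjusted p = 0.272, limma). VEGFA, the angiogenic growth factor gene, gave -0.68 for the probe set used and 1.05 for its other one, so its direction is not settled. Of SUSD4, PDLIM7, MUC4 and PDGFB, none passed the test between CGS-21680 and untreated cells. SUSD4 was near the lowest value of the table with CGS-21680 (2.29 and 2.77) against 4.46 and 5.08 with salmeterol, which with levels under 4 raised to 4 is a difference of at least 1.7-fold that does not pass the test (adjusted p = 0.201, limma). PDLIM7 was likewise under 4 with CGS-21680 and differed by at least 1.14-fold, which does not pass in that setting (adjusted p = 0.344, limma). It passed the filter only through its 2 salmeterol arrays, so its direction was fixed by the filter. MUC4, a membrane mucin gene, stayed at 5.0 and 4.93 with CGS-21680 and was 5.72 and 5.69 with salmeterol. Its call was lost in 12 of the 14 fits without 1 array, and with trend and robust moderation of the spread (adjusted p = 0.069, limma). PDGFB, a growth factor gene, was at 6.52 and 6.68 with CGS-21680, below its untreated arrays (6.82 and 6.88), and at 7.34 and 7.24 with salmeterol. Its other probe set gave -0.38, and the mean of both, -0.54, did not pass (adjusted p = 0.213, limma).

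IRF4 encodes a transcription factor that myeloma cells need for survival. It was at 11.88 and 11.93 in untreated cells, 11.11 and 11.04 with CGS-21680 and 10.16 and 10.29 with salmeterol. The order of the groups was the reverse of that of SAT1, with CGS-21680 again in the middle and no overlap. The difference was 0.84 ± 0.108 (adjusted p = 0.014, limma), or 1.8-fold. It was 0.71 with the array medians set equal (adjusted p = 0.0508, limma), 0.48 when its 2 probe sets were averaged (adjusted p = 0.346), and 0.81 and 0.88 without CGS-21680 replicate 1 or 2 (adjusted p = 0.0758 and 0.0576). DEPTOR, an inhibitor of mTOR that myeloma cells often express highly, was at 11.21 and 11.2 untreated, 10.47 and 10.38 with CGS-21680 and 9.15 and 9.33 with salmeterol. The difference of 1.18 ± 0.187 (adjusted p = 0.032, limma) was 2.27-fold, and it missed the threshold without any 1 of the 4 agonist arrays (adjusted p = 0.0754 to 0.106).

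PIGF, a gene of GPI anchor synthesis, was at 7.14 and 6.97 in untreated cells, 6.46 and 6.46 with CGS-21680 and 4.93 and 4.43 with salmeterol. The difference was 1.78 ± 0.149 (adjusted p = 0.0019, limma), but its other probe set gave 0.13 and the mean of both 0.96 (adjusted p = 0.0788). DTWD1, a tRNA-modifying enzyme gene, was the 1 gene of the 46 in which CGS-21680 and salmeterol lay on opposite sides of untreated cells and CGS-21680 passed the test against them. It was at 4.86 and 4.83 untreated, 5.42 and 5.42 with CGS-21680 and 4.63 and 4.63 with salmeterol. CGS-21680 rose by 0.57 (adjusted p = 0.0096, limma), and salmeterol gave -0.21 (adjusted p = 0.13). The replicates of DTWD1 were nearly equal (SD 0.000212 and 0.000283), and this small spread enters each fit of the gene. Over all genes tested, the 2 replicates were exactly equal in 5.78% with CGS-21680 and 6.19% with salmeterol. PARP14, the other higher gene in which salmeterol did not pass against untreated cells, was low throughout, at 4.42 and 4.13 with CGS-21680 and under 4 with salmeterol (at least 1.21-fold; with levels under 4 raised to 4, adjusted p = 0.263). It passed the filter only through its 2 CGS-21680 arrays, so its direction was fixed by the filter.

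SRSF7, a splicing factor gene, was at 11.02 and 11.01 untreated, 10.6 and 10.49 with CGS-21680 and 9.58 and 9.59 with salmeterol (0.96 ± 0.112, adjusted p = 0.011, limma). It missed the threshold without CGS-21680 replicate 1 (adjusted p = 0.0589), with its probe sets averaged (0.73, adjusted p = 0.0724), and with array medians set equal (0.82, adjusted p = 0.0508). WDR3, a factor of small ribosomal subunit assembly, was at 8.17 and 7.99 untreated, 8.02 and 8.12 with CGS-21680 and 7.26 and 7.24 with salmeterol. In WDR3 the CGS-21680 arrays lay within the range of the untreated ones, and the difference from salmeterol was 0.82 ± 0.0951 (adjusted p = 0.011, limma; 0.0544 and 0.0513 without CGS-21680 replicate 1 or 2). NR2C2, an orphan nuclear receptor gene, was at 6.81 and 6.79 with CGS-21680 and 5.38 and 5.21 with salmeterol, against 6.06 and 6.53 untreated. ZNRF3, a ubiquitin ligase gene that removes Wnt receptors, had the largest difference of the higher genes, 1.87 ± 0.26 (adjusted p = 0.019, limma), with 6.87 and 6.6 against 5.17 and 4.57.

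The remaining higher genes covered several functions. DHRS11, a dehydrogenase gene, differed by 1.64, C4orf46 by 1.53, LRIG1, a receptor inhibitor gene, by 1.06 and CYP26A1, which degrades retinoic acid, by 1.01. IL16, a cytokine gene, differed by 0.95, RAB36, a small GTPase gene, by 0.88 and the glycosyltransferase gene GLT8D1 by 0.71. The other probe set of IL16 gave 0.16, and IL16 did not pass with array medians set equal (0.81, adjusted p = 0.0508, limma). DPYD, which starts pyrimidine breakdown, was at 4.35 and 4.05 with CGS-21680 and 2.5 and 2.8 with salmeterol, at least 1.15-fold apart, which does not pass with levels under 4 raised to 4 (adjusted p = 0.715). XK, a membrane protein gene, was at 5.57 and 5.39 against 3.97 and 3.93, at least 2.78-fold. CDK8, a kinase of the Mediator complex, gave 1.13 for the probe set used and 0.32 for the mean of 3 (adjusted p = 0.632, limma). GCSH, NUDT3, C9orf40, TAFA5, SHLD2, KMT5B and TIMMDC1 differed by 0.52 to 0.95. Those 7, RAB36, GLT8D1 and PARP14 did not pass after quantile normalization, under which they ranged from 0.39 to 0.8. With their probe sets averaged, KMT5B, NUDT3, C9orf40 and TAFA5 did not pass (adjusted p = 0.219, 0.172, 0.189 and 0.0979, limma). GCSH passed with its probe sets averaged (adjusted p = 0.0179, limma) but lost the call in 13 of the 14 fits without 1 array.

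**Figure D2:**
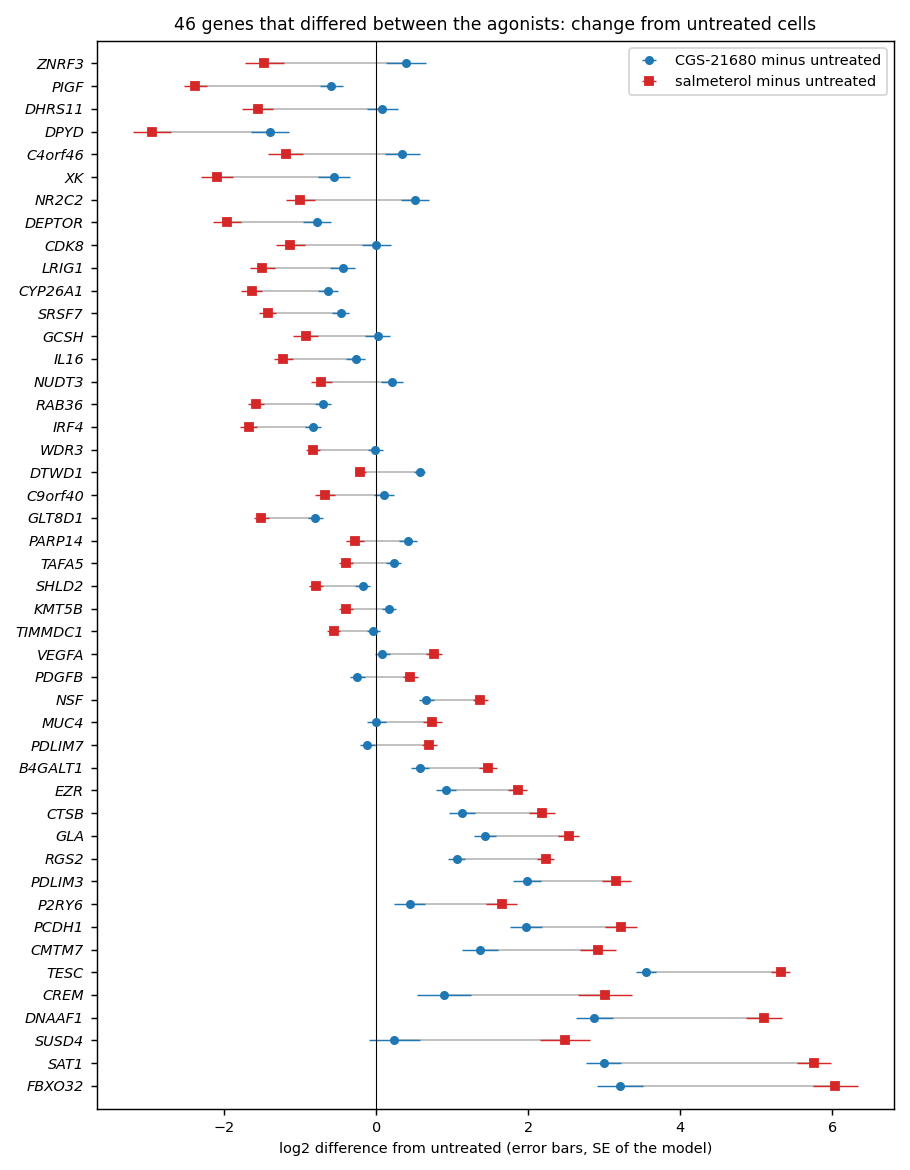
Log2 difference from untreated cells (x axis; error bars, SE of the model) with CGS-21680 (circles) and salmeterol (squares) for the 46 genes that differed between the agonists, ordered by that difference. The square lies further from 0 than the circle for nearly all genes; the 20 lower genes have their squares to the right and 24 of the 26 higher genes have theirs past the test on the left.

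Set against untreated cells, salmeterol passed the test in 555 genes (5.97%), of which 161 rose (1.73%) and 394 fell (4.24%). That split was 218 and 291 after quantile normalization and 251 and 264 with array medians set equal. CGS-21680 passed in 61 (0.656%), of which 36 rose (0.387%) and 25 fell (0.269%). Both comparisons share the untreated arrays, and each shares its agonist arrays with the comparison above, so their values are given side by side. Without untreated replicate 1 or 2 the counts were 213 and 231 for salmeterol and 11 and 17 for CGS-21680 (10 rose and 1 fell, and 16 rose and 1 fell), and without salmeterol replicate 1 or 2 the salmeterol count was 359 and 296. In all 20 lower genes salmeterol rose above untreated cells. CGS-21680 rose too in 12 of them and did not pass in the other 8. In those 12, the log2 change with CGS-21680 was 46.8% to 66.8% of the change with salmeterol (median 52.5%), from CMTM7 at the low end to TESC at the high end. In the other 8 genes it was between -56.0% and 39.5% (median 10.2%, with SUSD4 and PDLIM7, whose untreated levels lay under 4, included). Both sets were chosen by tests on these same arrays. A partial share in the 12 and a low share in the 8 therefore follow in part from the choice. Beside 25 nM dexamethasone, with dexamethasone alone as base, salmeterol passed in 11 of the 12, where the median share was 54.1%. It passed in 4 of the 8, where the share was 15.8% to 69.9% (median 38.0%). Among the 26 higher genes, salmeterol fell below untreated cells in 24. CGS-21680 also fell in 4 of these, GLT8D1, IRF4, RAB36 and DPYD, and in GLT8D1, IRF4 and RAB36 by 44.1% to 52.8% of the salmeterol change. No share is given for DPYD, which salmeterol brought near the lowest value of the table. In 21 higher genes CGS-21680 did not pass against untreated cells. Beside dexamethasone, salmeterol passed against dexamethasone alone in 14 of these 21. There the share was -16.9% to 96.2% (median 43.5%). Of all 26, the CGS-21680 mean without dexamethasone lay on the other side of the untreated mean from salmeterol in 11.

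The same pair of agonists beside 25 nM dexamethasone was measured on another 4 arrays. Their levels did not enter the difference above, but all 14 arrays share 1 estimate of spread and 1 filter. There they differed in 112 genes (1.2%; 49 higher and 63 lower). That count was 42 and 56 without replicate 1 or 2 of salmeterol with dexamethasone, and 53 without replicate 1 of CGS-21680 with dexamethasone. Of the 46 genes, 20 passed again, all in the same direction, which is 43.5% of the 46 and 17.9% of the 112. Among the 20 lower genes, 11 passed, 19 had the same sign, and in 18 the arrays did not overlap. Of all genes, 44.7% were lower there and 14.1% were lower without overlap. Among the 26 higher genes, 9 passed, 23 had the same sign and 20 did not overlap. Of all genes, 54.7% were higher there and 21.6% were higher without overlap. The median difference of the 26 higher genes was 0.46 there, against 0.95 without dexamethasone. For the 20 lower genes it was -0.97 against -1.17. SAT1 was at 9.28 and 9.6 with CGS-21680 and dexamethasone and at 12.23 and 12.07 with salmeterol and dexamethasone, a difference of -2.71 (adjusted p = 0.00065, limma) against -2.77 without dexamethasone.

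TESC beside dexamethasone was at 10.9 and 11.26 with CGS-21680 and 12.8 and 12.79 with salmeterol (-1.71, adjusted p = 0.00035, limma). DNAAF1 was at 10.96 and 11.35 against 13.37 and 13.42 (-2.24, adjusted p = 0.0024). RGS2, at 9.49 and 9.29 against 10.21 and 10.05, differed by -0.74 (adjusted p = 0.015), FBXO32 by -1.7 (adjusted p = 0.029), GLA by -1.17 (adjusted p = 0.0046) and IRF4 by 0.57 (adjusted p = 0.044). DEPTOR differed by 1.44 (adjusted p = 0.0066) and IL16 by 1.22 (adjusted p = 0.0016, limma). Other genes did not differ beyond the threshold there. CREM gave -1.53 (adjusted p = 0.097), PIGF 0.59 (adjusted p = 0.13), PCDH1 -0.29 (adjusted p = 0.78), VEGFA -0.09, PDGFB 0.12 and NR2C2 0.05. The difference of the differences passed in 1 of the 46 genes, DTWD1, which was at 4.62 to 4.63 on all 4 arrays with dexamethasone (-0.79, adjusted p = 0.026, limma). DTWD1 kept that call in 4 alternative fits and lost it in 18, among them quantile normalization (adjusted p = 0.119) and every fit without 1 array (up to 0.141).

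**Figure D3:**
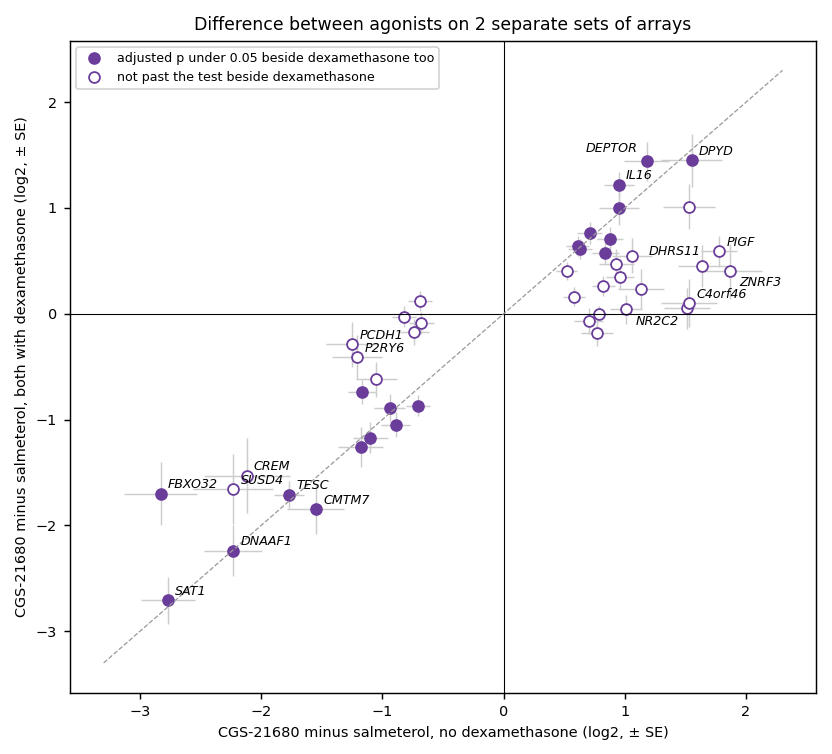
Log2 difference, CGS-21680 minus salmeterol, without dexamethasone (x axis) and beside 25 nM dexamethasone (y axis), from separate arrays, for the 46 genes that differed without dexamethasone (bars, SE of the model; filled, past the test on both). The sign is the same on both axes for 19 of the 20 lower and 23 of the 26 higher genes; the dashed line marks equal differences.

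Genes were also chosen by their change with an agonist beside dexamethasone, a contrast whose levels come from other arrays, with the spread pooled over all 14. The 163 genes that CGS-21680 raised beside dexamethasone, against dexamethasone alone (316 genes changed there, 3.4% of those tested, and 1.75% rose), had a median change from untreated cells of 0.384 with salmeterol and 0.359 with CGS-21680 when no dexamethasone was present. Salmeterol was further in that direction in 67.5% of them, against 31.5% of all genes, and in 79.8% against 54.0% after quantile normalization. The 153 genes that CGS-21680 lowered beside dexamethasone (1.64%) had medians of -0.7 and -0.316. Salmeterol was further down in 92.2% of these, against 68.1% of all genes, and in 84.3% against 45.9% after quantile normalization. The 585 genes that salmeterol raised beside dexamethasone (6.29%) and the 756 that it lowered (8.13%), 14.4% of genes together, gave 59.7% and 95.2% with salmeterol further, and 78.1% and 83.6% after quantile normalization. Of the 163 and 153 genes chosen with CGS-21680, 12 and 9 were called with salmeterol further, and 0 with CGS-21680 further (limma). Of all genes, 0.215% were called lower and 0.28% higher.

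The other genes of the cyclic AMP pathway were mostly below the threshold of the test. Of 24 cyclic AMP and CREB targets measured, 3 were lower (RGS2, CREM and VEGFA, the last with an unsettled direction) and 0 higher. Of all genes, 0.215% were lower. The median difference of the list was -0.15 against 0.09 over all genes. RGS2 and CREM were also preset with earlier results known, so the count does not test the list. Of 7 phosphodiesterases that degrade cyclic AMP, 0 passed, and 1 had an unadjusted p under 0.05 (limma). Of all 9301 genes tested, 1167 had such a p. PDE4B, the phosphodiesterase with the largest difference, was at 6.95 and 6.36 in untreated cells, 9.1 and 8.9 with CGS-21680 and 9.95 and 10.1 with salmeterol. The arrays did not overlap, and the difference was -1.02 ± 0.342 (95% interval -1.79 to -0.25, adjusted p = 0.24, limma). PDE3B gave -0.83 (adjusted p = 0.45) and PDE4A 0.26 (adjusted p = 0.68). Receptors, adenylyl cyclases and protein kinase A genes gave 0 calls among 31, with 3 at an unadjusted p under 0.05 (limma). GNAS, the gene of the stimulatory G protein itself, was at 13.99 and 13.77 with CGS-21680 and 14.23 and 14.17 with salmeterol (-0.32, adjusted p = 0.26). RGS1, a relative of RGS2, was at 12.56 and 13.03 with CGS-21680 and 13.74 and 13.43 with salmeterol, from 10.02 and 9.99 untreated (-0.79, adjusted p = 0.094, limma).

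Outside that pathway, 27 plasma cell and myeloma genes had 1 call (IRF4), a median of 0.23 (0.13 after quantile normalization) and 9 genes at an unadjusted p under 0.05. Of all 9301 genes, 0.495% were called and 1167 had such a p. IRF4 was also preset with earlier results known. The lowest values of the list were CD38 (-0.50), XBP1 (-0.23) and CCND2 (-0.11), none past the test. CD48, an adhesion receptor gene, was at 11.59 and 11.1 with CGS-21680 and 10.48 and 10.6 with salmeterol, from 12.03 and 11.87 untreated (0.80 ± 0.154, adjusted p = 0.067, limma). Beside dexamethasone it passed, with 0.97 (adjusted p = 0.019). TNFRSF17, the gene of the survival receptor BCMA, was at 11.09 and 11.29 with CGS-21680 and 10.52 and 10.67 with salmeterol, from 12.24 and 12.41 untreated (0.60, adjusted p = 0.099, limma). ITGA4, an integrin gene, was at 7.76 and 7.82 with CGS-21680 and 6.39 and 5.73 with salmeterol (1.73, adjusted p = 0.058). MYC was at 12.41 and 12.36 with CGS-21680 and 12.01 and 12.26 with salmeterol, a difference of 0.25 with a 95% interval of -0.03 to 0.53. Beside dexamethasone MYC differed by 1.13 (adjusted p = 0.0025, limma). The 35 genes of MYC and ribosome biogenesis had 1 call (WDR3) and a median of 0.25, with 28 above the median of all genes. After quantile normalization that median was 0.12.

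Of 16 FOXO targets 1 was lower (FBXO32), of 11 polyamine genes 1 (SAT1), and of 8 RGS genes 1 (RGS2), against 0.215% of all genes. FBXO32, SAT1 and RGS2 were also preset, and the lists were chosen with earlier results known, so these shares do not test the lists. The polyamine synthesis genes SRM and ODC1 gave 0.29 and 0.30 (adjusted p = 0.25 and 0.31, limma). In the BCL2 family 0 of 11 passed, with 3 at an unadjusted p under 0.05 (limma), which 1167 of all 9301 genes had. BCL2L11, which encodes the cell death promoter BIM, was at 9.55 and 9.59 untreated, 10.5 and 10.57 with CGS-21680 and 11.05 and 11.2 with salmeterol (-0.59 ± 0.112, adjusted p = 0.067, limma). Both agonists passed against untreated cells, 0.97 (adjusted p = 0.0065) and 1.55 (adjusted p = 8.8e-05). MCL1, a survival gene of the same family, was at 11.23 and 11.21 with CGS-21680 and 11.23 and 11.15 with salmeterol, with a 95% interval of the difference from -0.16 to 0.22. Among 34 mitosis genes and 24 replication genes 0 passed, with 0 and 1 at an unadjusted p under 0.05 (limma), and their medians were -0.04 and 0.05. NR4A1, an immediate early target of CREB, was at 5.75 and 5.84 with CGS-21680 and 5.77 and 5.77 with salmeterol, with an interval of -0.22 to 0.27, and its sign changed with the scaling. Beside dexamethasone it differed by -0.75 (adjusted p = 0.011).

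**Figure D4:**
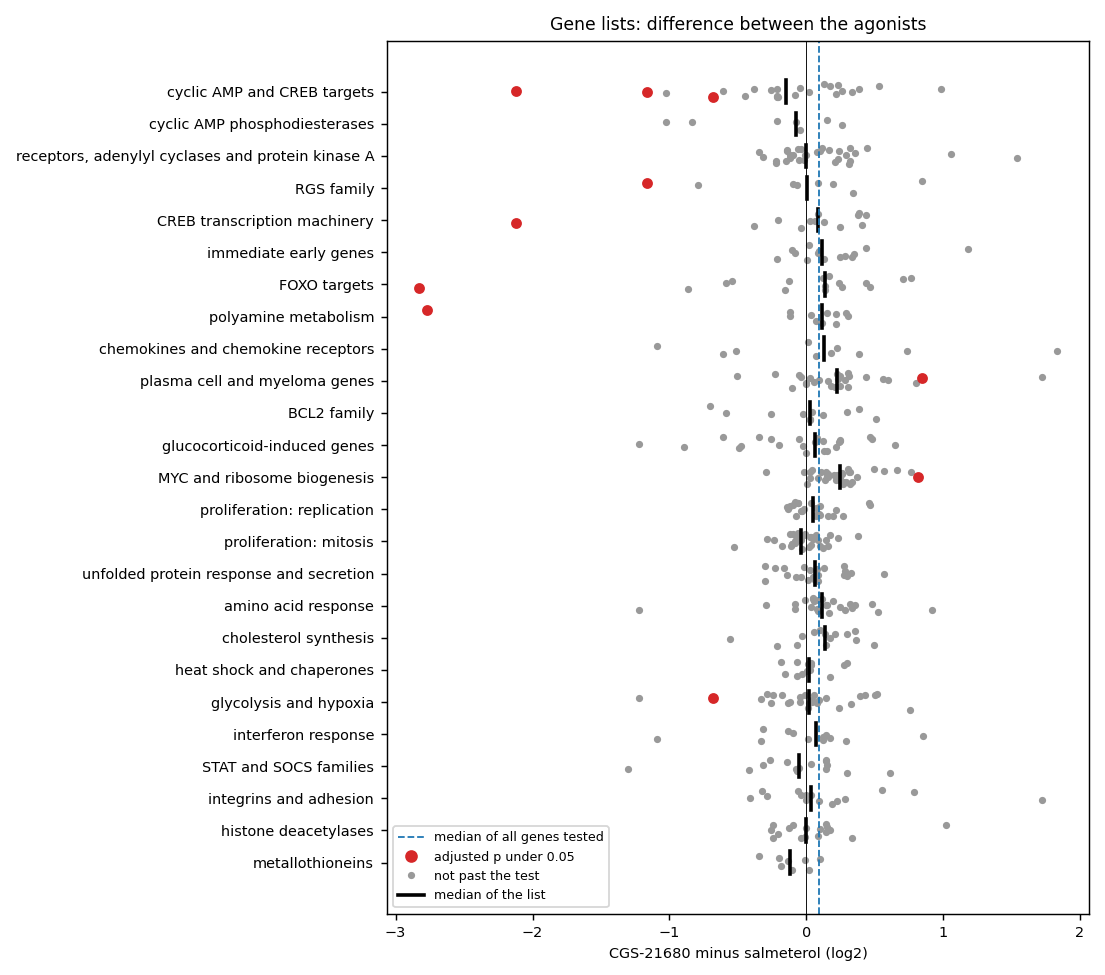
Log2 difference, CGS-21680 minus salmeterol without dexamethasone, for the measured members of each gene list (points, 1 per gene) with the list median (black bar); red points passed the test. SAT1 and FBXO32 stand apart in lists whose medians, 0.12 and 0.14, lie near that of all genes, 0.09. IRF4 (0.84) passed in a list with a median of 0.23 and lies below ITGA4 (1.73), which did not pass.

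Some of the largest differences did not pass the test. STAT4, a cytokine-activated transcription factor gene, was at 4.68 and 4.43 untreated, 8.71 and 8.85 with CGS-21680 and 10.12 and 10.04 with salmeterol (-1.30 ± 0.287, adjusted p = 0.098, limma). CXCL10, a chemokine gene, was at 9.18 and 9.08 with CGS-21680 and 10.25 and 10.2 with salmeterol (-1.09, adjusted p = 0.33), with untreated arrays at 6.63 and 4.94. Each agonist passed the test against untreated cells for both genes. AOC3, an amine oxidase gene, gave -2.07 (95% interval -3.45 to -0.68, adjusted p = 0.19), with CGS-21680 arrays at 3.2 and 4.62. In the other direction CCL4, a chemokine gene, gave 1.84 (interval 0.57 to 3.11, adjusted p = 0.2), PLA2G4A, a phospholipase gene, 2.01 (adjusted p = 0.17) and HDAC9, a deacetylase gene, 1.02 (adjusted p = 0.28, limma). EHHADH, an enzyme gene of fatty acid oxidation, came closest among these, at 6.12 and 5.09 with CGS-21680 and 3.33 and 3.8 with salmeterol (2.04, adjusted p = 0.059).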

How the data were processed

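The 14 arrays measured RNA of MM1S cells. The authors deposited 1 intensity per probe set, made with GCRMA per the submitters' processing notes, with its version, settings and genome build not given in the sources used here. GCRMA corrects background and normalizes between arrays. The deposited intensity was taken as linear, from its values, and its lowest value, 4.879, lies at 2.286 in log2. Weak genes therefore show compressed changes. The deposited values were converted to log2 with no pseudocount. Of 54675 probe sets, 41097 had 1 symbol, 1801 several and 11777 no listing.

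Means of the 7 groups were estimated from all 14 arrays in 1 model with limma 3.58.1 in R 4.3.3 (lmFit, eBayes; 7 residual and 2.3 prior degrees of freedom). Benjamini-Hochberg adjustment covered 9301 genes. Every adjusted p comes from limma, and errors are its standard errors. With 2 arrays against 2, the smallest exact permutation p is 0.333. The number of arrays limits the precision.

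The genes named were all those called, the 8 largest uncalled differences each way, the 3 smallest p-values of each list, 28 preset genes (25 tested) and up to 10 genes whose difference changed with dexamethasone. The members, lists and tests were chosen with earlier results of these data known. The alternatives, 9 planned and 1 added after seeing the data (array medians set equal), are quantile normalization, other filters, the mean of probe sets, other moderation, fewer groups, a replicate block, a raised floor and leaving out each array. The test was also run on simulated data, with an outcome that is not reported here. Columns of no sample numbered 0.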

Additional observations from a re-analysis of the deposited data

Results flagged for a closer look

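In 13 genes (0.14% of those tested) the difference between the agonists beside dexamethasone departed from the difference without it, all with a negative sign (limma, adjusted p under 0.05). The levels were higher with salmeterol and dexamethasone than with CGS-21680 and dexamethasone in all of them but DTWD1. Those under a log2 level of 4 with each agonist alone passed the filter through other arrays, so the filter can favour 1 sign. Without the filter, 40 genes passed, 21 with a positive and 19 with a negative sign. The shared sign is therefore not a result about these genes. SGK1, a kinase gene that glucocorticoids induce, was at 8.43 and 8.78 with CGS-21680 and 8.35 and 8.43 with salmeterol. With dexamethasone it was at 8.9 and 9.01 against 10.73 and 10.71, and the change of the difference was -1.98 ± 0.18 (adjusted p = 0.0058, limma). MT1X, a metallothionein gene, was at 8.19 and 7.69 against 9.7 and 9.84 with dexamethasone (-1.63, adjusted p = 0.026). CHST2, a sulfotransferase gene, was at 4.32 and 5.4 against 8.79 and 8.6 (-3.59, adjusted p = 0.023). MT1X lost the call in 15 alternative fits and kept it in 8, and CHST2 in 14 and 9, with an adjusted p of up to 0.164 and 0.141 without 1 array. SGK1 lost it in 2 and kept it in 21.

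The agonists were close to each other and under a log2 level of 4 without dexamethasone for WFDC21P (-5.37), FGL2 (-4.57), IRAK2 (-2.63), SPP1 (-2.20), KLF5 (-2.14), HPGD (-1.98), TSC22D1 (-1.51) and VLDLR (-0.96). With levels under 4 raised to 4 the values were -4.05 for WFDC21P and -4.55 for FGL2, and the call ended for VLDLR (-0.34), HPGD (-0.63), IRAK2 (-1.27) and SPP1 (-0.49). TRABD2A gave -1.08. DTWD1 (-0.79, adjusted p = 0.026, limma) is the 1 gene here in which the agonists differed without dexamethasone, 5.42 and 5.42 with CGS-21680 against 4.63 and 4.63. It kept the call in 4 alternative fits and lost it in 18. IRAK2, TRABD2A and SPP1 lie outside the naming rule and were chosen after their values were seen. Leaving out 1 array left 0 to 19 such genes: 0 without replicate 2 of salmeterol with dexamethasone, where 525 genes had an unadjusted p under 0.05.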

How the results depend on the processing

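With 2 arrays per group, the counts move with the arrays used and with the estimate of spread. Without 1 array, the range was 8 to 70 for CGS-21680 against salmeterol, 213 to 571 for salmeterol against untreated cells, 11 to 52 for CGS-21680 against untreated cells, 42 to 116 for the agonists beside dexamethasone, and 0 to 19 for the change of the difference. Fitted on the groups compared alone, the counts were 0, 5, 0, 0 and 0 in that order (limma), with 1096, 780, 974 and 533 genes at an unadjusted p under 0.05 where the count was 0. Without the filter on low levels, 85 genes (35 higher, 50 lower) differed between the agonists and 40 in the change of the difference (21 and 19), and with the filter at a log2 level of 6 the latter count was 6. With a replicate block, the agonists differed in 72 genes (49 and 23). Deviations of same-numbered arrays correlated at -0.173 to 0.255 over 21 pairs of groups, 0.033 for the agonists, so the numbers were not taken to pair the arrays. For genes called between the agonists, 377 values without 1 array kept direction and call and 263 kept direction only, and under the other settings 299 and 106 did and 2 changed sign. Changes of sign were VEGFA 0.18 (mean of probe sets), CDK8 -0.18 (filter at 6), and, among genes not called, PDE4A -0.01, KIF2C -0.05 and NR4A1 -0.09 (mean of probe sets), NR4A1 -0.12 and MCL1 -0.05 (quantile normalization), NR4A1 -0.12 and MCL1 -0.11 (array medians set equal), and, without 1 array, HDAC4 (-0.01 to 0.68), NR4A1 (-0.02 to 0.07), PDE4D (-0.96 to 0.53), MCL1 (-0.01 to 0.07) and PRKAR1A (-0.61 to 0.17). Their causes were not tested.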

Other observations

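Several genes of the lists differed between the agonists beside dexamethasone while the arrays without it gave little difference. FOSL2, a subunit of the AP-1 transcription factor, gave -1.37 beside dexamethasone (adjusted p = 0.0018, limma) and -0.09 without it. GADD45A, a stress response gene, gave -1.39 and -0.13, and PFKFB3, which stimulates glycolysis, -1.47 and -0.18. The metallothionein genes MT2A and MT1H gave -1.51 and -1.25 beside dexamethasone, against -0.35 and 0.02. SDC1, the plasma cell surface marker syndecan-1, gave 0.71 (adjusted p = 0.015, limma) against 0.29. Of these genes, none passed the test of the change of the difference, so a change with dexamethasone was not shown for them. They were picked from the lists for passing beside dexamethasone, after their values were seen.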
